A study of Drosophila melanogaster with 4 samples.

Results

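Tagged Doublesex was recovered at many places along its own gene, with by far the strongest site just upstream of it. The dsx gene (FBgn0000504) lies on chromosome 3R at 7924323 to 7967408 of the dm6 assembly, on the minus strand, and spans 43086 bp. The binding sites described here are the peak summits on 3R from 7919323 to 7972408, which is the gene with 5 kb on each side. Of the 9154 summits in the list that the authors derived as reproducible, 30 lay in this window. The pooled list held 57 of its 30000 summits there. The lists of replicates 1 to 4 held 66, 62, 56 and 58 of their 30000 summits, a mean of 60.5 ± 4.43 (SD, n = 4). Some of the 30 reproducible summits lay close to a neighbour, and joining those at most 300 bp apart left 23 separate sites.

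The summits come from ChIP-seq, in which chromatin fragments carrying a protein are recovered with an antibody and sequenced. Whole prepupae labelled 24 h of age, males and females pooled, were taken from the transgenic line dsx-GFP, in which GFP is fused to the C terminus of dsx, and the tagged protein was recovered with an anti-GFP antibody. The labels number 4 samples as biological replicates 1 to 4, each with 1 technical replicate, and all belong to 1 group, so no conditions were compared. Control samples were not analysed here. All animals carried the tagged gene, and the labels do not say whether the endogenous gene was still present, nor which of the sex-specific proteins carries the tag. Reads from a tagged copy of dsx and from the endogenous gene map to the same window, so their parts in the values below cannot be told apart. In whole animals, binding in more cells and more binding per cell cannot be told apart either.

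In Drosophila the somatic sex determination cascade ends in Doublesex, a transcription factor. Sex-lethal acts through Transformer, which together with Transformer 2 directs splicing of the dsx transcript to its female-specific exon. Without Transformer that exon is skipped and the male-specific exons are joined instead. Both proteins share the DNA-binding domain, called the DM domain, encoded by the exon common to the sexes, and differ in their C-terminal ends.

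Of the 30 reproducible summits, 7 had a match to the degenerate Doublesex consensus of 13 letters whole within 50 bp, and these matches are printed first because they include the strongest site and the strongest intronic site of the gene. The sequence is that of the RefSeq copy of dm6, read 5′ to 3′ on the strand of the match, with 10 bases on each side, and the capitals mark the consensus match.
Summit 7968003, strongest site, upstream flank (chr3R:7967985-7968017, minus strand): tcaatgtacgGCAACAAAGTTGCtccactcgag
Summit 7957208, strongest intronic site, intron 2 (chr3R:7957185-7957217, plus strand): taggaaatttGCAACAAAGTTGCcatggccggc
Summit 7961584, first intron (chr3R:7961551-7961583, minus strand): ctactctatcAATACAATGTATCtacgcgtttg
Summit 7954683, intron 2 (chr3R:7954637-7954669, plus strand): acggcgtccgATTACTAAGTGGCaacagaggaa
Summit 7950382, intron 2 (chr3R:7950389-7950421, plus strand): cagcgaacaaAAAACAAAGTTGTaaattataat
Summit 7945158, intron 2 (chr3R:7945120-7945152, minus strand): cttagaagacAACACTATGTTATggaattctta
Summit 7927169, intron between the male exons (chr3R:7927161-7927193, plus strand): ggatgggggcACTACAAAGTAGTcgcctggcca

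The summit with the highest signal and the strongest intronic summit held the identical 13 bases GCAACAAAGTTGC. This identity was noticed after the values were seen. In the upstream site the middle of the match lay 2 bp from the summit, and in the intron 7 bp from it. These 13 bases occurred 55 times on the chromosome arms, and 18 of the occurrences (32.7%) lay within 50 bp of a reproducible summit, these 2 among them. The other 16 have no part in the dsx window. In rank of signal, the strongest summits over a copy were first and 43rd for dsx, followed by summits ranked 49th, nearest to the start of rols, and 83rd, nearest to the start of Dyro. The longer surroundings of both dsx copies, 201 bases centred on the summit and read on the strand of dsx, are shown with the same 13 bases in capitals, which in the intron lie in the opposite orientation. Their GC contents were 51.2% upstream and 53.7% in the intron.
Window around summit 7968003 (chr3R:7967903-7968103, minus strand): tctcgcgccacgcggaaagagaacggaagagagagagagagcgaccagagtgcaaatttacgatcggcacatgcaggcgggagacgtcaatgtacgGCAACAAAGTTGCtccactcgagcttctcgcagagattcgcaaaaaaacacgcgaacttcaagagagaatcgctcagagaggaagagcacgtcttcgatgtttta
Window around summit 7957208 (chr3R:7957108-7957308, minus strand): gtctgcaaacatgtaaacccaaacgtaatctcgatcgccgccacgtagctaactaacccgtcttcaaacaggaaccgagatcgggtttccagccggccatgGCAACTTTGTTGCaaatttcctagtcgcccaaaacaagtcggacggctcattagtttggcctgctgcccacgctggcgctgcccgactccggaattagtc

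Seen against the gene structure, the summits were densest in the upstream flank, and the rest were spread along the gene, mostly in introns. The annotation gives dsx 2 transcription starts, at 7967408 and, 4622 bp downstream, at 7962786. Its 4 female and 3 male transcripts share exon 2 (7959752 to 7961122), where the protein begins, and the sequence of exon 3 (7935768 to 7935905). The female exon follows at 7931168 to 7935653, with the stop codon of 3 female transcripts at 7935562, and the male exons at 7930171 to 7930687 and 7924323 to 7925360. The remaining female transcript keeps the intron after exon 3 and stops within it, at 7935748. Neither shared exon, of 1371 and 138 bp, held a summit of the reproducible or the pooled list, and stretches this short would hold few at the density of the locus. The upstream flank of 5000 bp held 6 reproducible summits, or 1.2 per kb, while the downstream flank of the same length held none in either list. These 6 formed 3 sites, and 4 of them belonged to 1 chain of joined summits. Counted by sites, the upstream flank was not the densest part, since the first exon held 1 in 946 bp. Intron 2, which at 23846 bp makes up much of the gene, held 15 summits in 11 sites, or 0.629 per kb, near the density of all introns of the gene. The intron between the male exons held 2 summits, and neither male exon held a reproducible one.

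By length, introns made up 64.1% of the window and held 21 of the 30 summits (70%), or 0.617 per kb. Exons made up 17.1% and held 3 summits (10%), or 0.331 per kb. The flanks made up 18.8% and held 6 summits (20%), or 0.6 per kb. The exonic summits were 7967084, in the noncoding first exon, and 7931640 and 7934075, with signals of 413 and 367, in the female exon. The latter 2 lay beyond 7934482, where 3 of the 4 female transcripts end, and were exonic in 1 transcript with a longer 3′ untranslated part. No reproducible summit lay in sequence coding for either protein. Neighbouring sites were 752 to 4852 bp apart, with a median gap of 1640 bp.

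**Figure D1:**
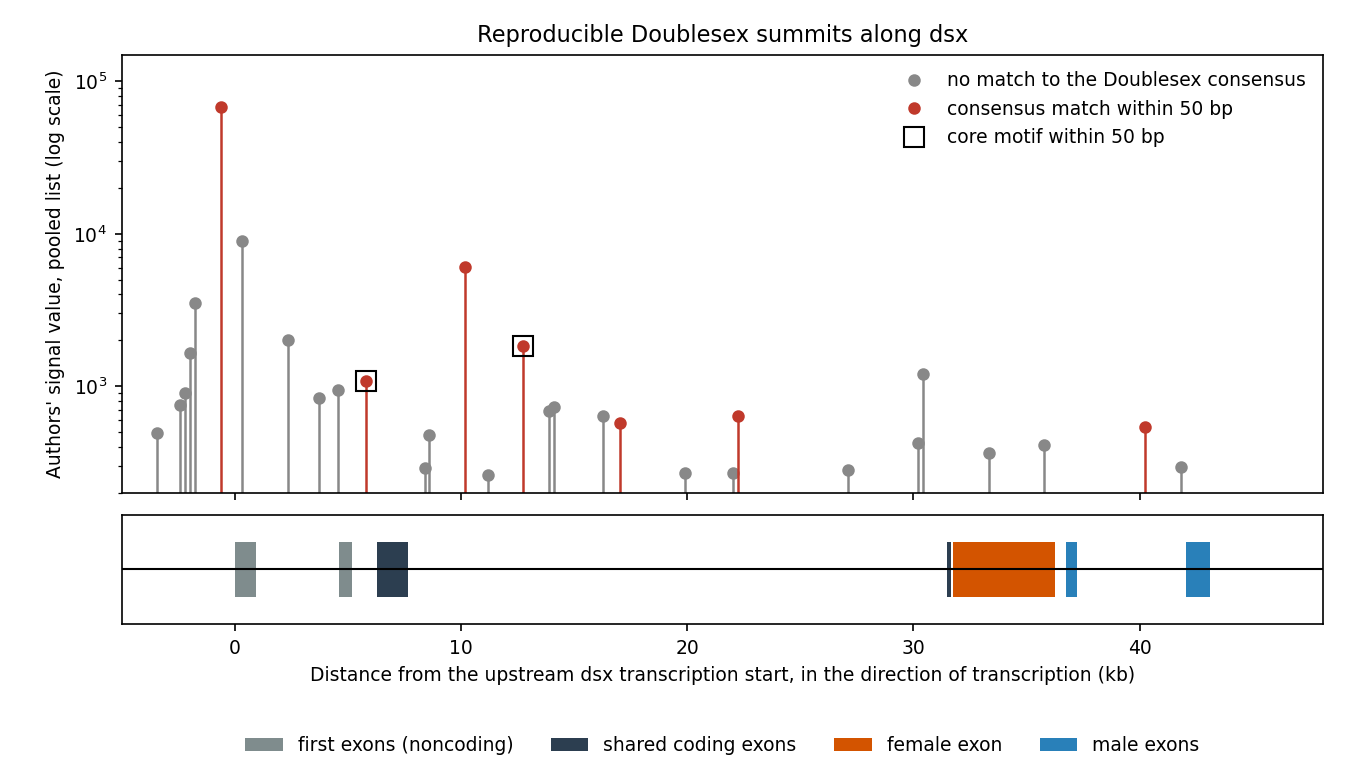
Reproducible summits along dsx. The x axis gives the distance from the upstream transcription start in kb, in the direction of transcription, and the y axis the authors' signal value in the pooled list on a log scale, with red points for a consensus match and squares for the core motif within 50 bp. The lower panel shows the exons; the tallest summit stands 595 bp upstream of the start, and no summit falls on the shared coding exons.

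The site 595 bp upstream of the start, at 7968003, had the highest signal value of the whole pooled list, 68022. The signal value is the authors' score for a peak and is not normalized between lists, so it is read here by rank and as a share within a list. In replicates 1, 2, 3 and 4 its signals were 16521, 21721, 15428 and 14528, first in rank in each list. Its summit fell at 7968012, 7968015, 7968008 and 7967999, an SD of 6.95 bp (n = 4). Replicate 1, the only one that did not enter the pooled and reproducible lists, thus placed it 9 bp from the pooled summit.

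How far this site stood above the next peak of the genome varied between replicates, while its ratio to the second dsx site varied less. Relative to the second peak of each list, at 2L 12010400, it was 1.80, 1.82, 1.09 and 1.03 times as strong in replicates 1 to 4, on average 1.43 ± 0.434 (SD, n = 4). The values of replicates 1 and 2 did not overlap those of replicates 3 and 4. Relative to the third peak of each list the dsx site was 3.04, 3.04, 1.77 and 1.74 times as strong, whereas the second peak was 1.69, 1.67, 1.63 and 1.69 times the third. Within the locus it was 6.83, 7.49, 7.75 and 7.58 times the second dsx site, a mean of 7.41 ± 0.403 (SD, n = 4), and 11.3 ± 0.586 times the third.

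The next 3 sites kept the same order in all 4 replicates. The summit in the noncoding first exon, 7967084, 324 bp downstream of the start, had a pooled signal of 9003 and rank 20. It reached 14.6%, 13.4%, 12.9% and 13.2% of the strongest site in replicates 1 to 4, on average 13.5% ± 0.768 (SD, n = 4). The intron 2 site at 7957208, 10200 bp downstream of the start, had a pooled signal of 6025 and rank 43. It reached 8.53%, 8.59%, 8.85% and 9.57%, a mean of 8.89% ± 0.480. The site at 7969158, 1750 bp upstream of the start, had a pooled signal of 3536 and rank 150. It reached 5.54%, 5.04%, 5.27% and 5.22%, a mean of 5.27% ± 0.206, and its ranges did not overlap those of its neighbours in the order. This upstream site was a chain of 4 joined summits, the others at 7969361, 7969610 and 7969834 with signals of 1652, 902 and 749.6.

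The sites around the upstream start lay in wide peak intervals. The reproducible list put the strongest site and the first-exon site into 1 interval, 7966182 to 7968613, of 2432 bp, rank 5 in width among 8775 intervals with a median of 386 bp. The chain of 4 summits upstream filled the interval 7968640 to 7970138, of 1499 bp and rank 29 in width. Sites upstream of the second start, 7 in number, had a median signal of 2021 (495 to 68022). The 16 sites downstream of it had a median of 556 (262 to 6025).

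Below these, sites overlapped in strength and their order changed between replicates. The site at 7965037, in the first intron 2371 bp from the upstream start, had a pooled signal of 2021. It reached 3.04%, 2.33%, 2.82% and 4.27% of the strongest site in replicates 1 to 4, 3.12% ± 0.825 (SD, n = 4). The intron 2 site at 7954683, with a pooled signal of 1827, reached 1.72%, 2.25%, 3.81% and 3.56%, or 2.84% ± 1.01. It was weaker than the first-intron site in replicates 1, 2 and 4 and stronger in replicate 3, so these neighbours did not differ beyond their spread.

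The site at 7936985, pooled signal 1202, was the strongest near the female exon. It lay in the distal end of intron 2, 1080 bp before exon 3 and 1423 bp from the female stop codon, and reached 1.73%, 1.56%, 1.92% and 1.95% in replicates 1 to 4 (1.79% ± 0.182). The site at 7961584, in the intron before the shared exon 2, had a pooled signal of 1085 and reached 1.03%, 1.03%, 2.22% and 2.43% (1.68% ± 0.753). Replicates 3 and 4 were higher than replicates 1 and 2 at this site, with no overlap. The divisor, the strongest site, was itself relatively lower in replicates 3 and 4, as described below. On the log2 scale described there, which does not use this divisor, the site at 7961584 deviated by -0.19, -0.35, 0.08 and 0.37. Replicates 3 and 4 were thus higher on that scale too, without overlap. How many other summits show this split was not counted. The summit nearest to the second start, 7962845, lay 59 bp upstream of it, had a pooled signal of 944 and reached 1.73%, 1.26%, 1.15% and 1.22% (1.34% ± 0.265). The tenth site, 7963675, with a pooled signal of 839.9, reached 1.69%, 1.56%, 0.414% and 1.41% (1.27% ± 0.581). Replicate 3 was the lowest there, and in its list the site ranked 11301.

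**Figure D2:**
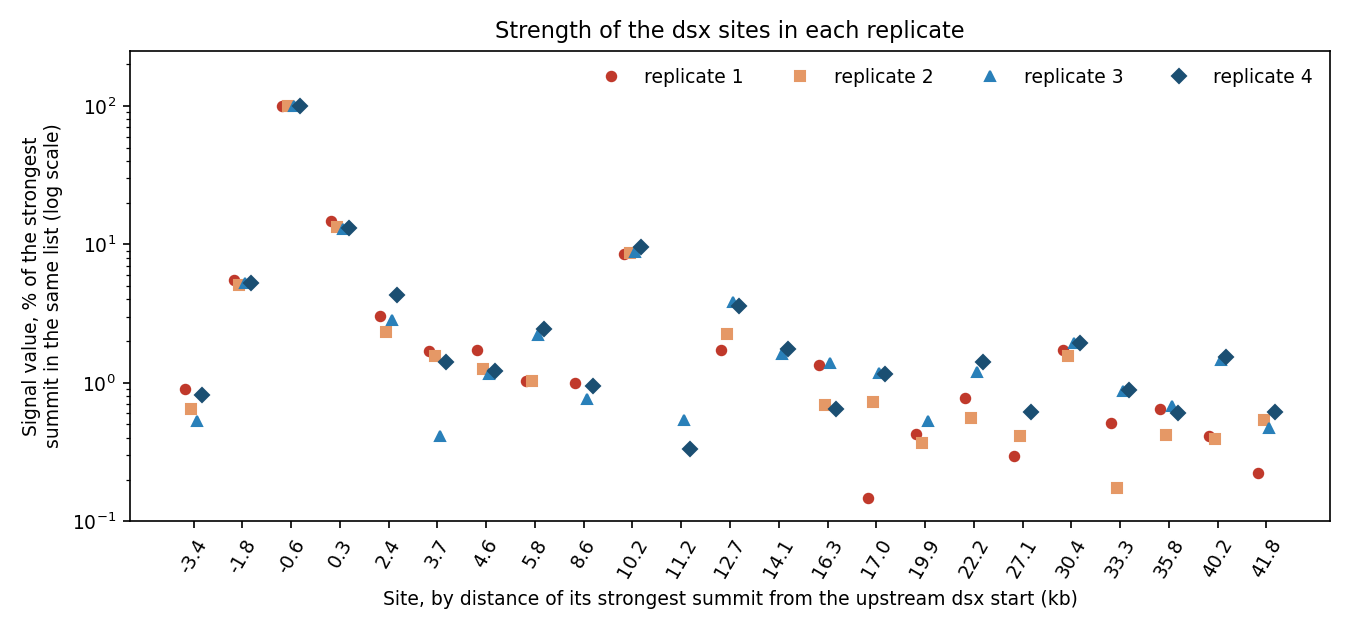
Strength of the 23 dsx sites in each replicate. The x axis orders the sites by the distance of their strongest summit from the upstream start in kb, and the y axis gives the signal as a percentage of the strongest summit in the same list on a log scale, 1 symbol per replicate. The symbols of the 4 strongest sites lie close together, and those of weaker sites spread.

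Most dsx sites were found again in each replicate, at about the share of sites elsewhere. A site counted as recovered when a replicate had a summit within 100 bp of the site's strongest summit among its strongest 10000. All 4 replicates recovered 14 of the 23 sites (60.9%), against 56.1% of the 8374 sites made in the same way over the whole reproducible list, so the locus was near the background. With a match to any joined summit of a site, an alternative chosen after seeing the data, the count was 15 of 23 (65.2%, against 58.3%). By the strongest summit, 7 of the remaining sites were recovered in 3 replicates, 1 in 2 and 1 in 1. Replicates 1 and 2 each recovered 19 sites and replicates 3 and 4 each 21. For replicate 1, which did not enter the reproducible list, this was 82.6% against 76.1% of all sites, and for replicate 2 it was 82.6% against 83.4%. For replicates 3 and 4 it was 91.3% in each, against 87.7% and 84.0%.

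The 9 sites whose strongest summit was missing somewhere had pooled signals of 839.9 or lower. The summit at 7953300 (728) was missing in replicates 1 and 2, and that at 7956199 (262) in replicates 1, 2 and 4. Replicate 1 alone missed 7950382 (576) and 7925573 (296), the latter 213 bp from the last male exon. Replicate 2 alone missed 7958799 (476) and the female-exon site 7934075 (367). It held the joined summits 7953507 and 7958999 beside 7953300 and 7958799, so it did hold these sites. Replicate 3 alone missed 7963675 and 7940306 (280), and replicate 4 alone missed 7947505 (270). When each replicate list was taken at the length of the reproducible list, 9154 summits, the locus held 31, 29, 29 and 31 summits in replicates 1 to 4, or 30 ± 1.15 (SD, n = 4).

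The order of site strength was similar between replicates. Across the sites held by both lists, 19 to 21 for each pair, Spearman's rho averaged 0.807 ± 0.0743 (SD, n = 6 pairs) with the lowest value, 0.707, between replicates 1 and 3 and the highest, 0.884, between replicates 3 and 4. These sites share their libraries, so the values are a description. At the 18 sites with a summit in all 4 lists, the replicate summits lay within a median of 46 bp of each other (13 to 137), and at the 10 strongest sites within a median of 36 bp.

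Replicates differed in the level of the dsx sites relative to the rest of the genome. For each summit in all 4 lists the log2 signal was set against its mean over the replicates and centred on the median of all 7106 such summits. On this log2 scale the strongest site deviated by 0.39, 0.24, -0.45 and -0.28 in replicates 1 to 4. The 18 dsx sites had median deviations of 0.39, 0.08, -0.33 and -0.01. Their median SD between replicates was 0.45, against 0.37 over all 7106 summits, which were not joined into sites. The locus was thus relatively higher in replicate 1 and lower in replicate 3, and the cause was not tested.

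The sites with and without the consensus did not share this pattern. The 11 sites without a consensus match had median deviations of 0.51, 0.11, -0.44 and -0.15, with 10 of 11 above 0 in replicate 1 and 9 of 11 below 0 in replicate 3. Neighbouring sites share their libraries, so these counts are a description. The deviations were centred on the median of all 7106 summits, so near equal numbers of these lie above and below 0 in each replicate. The 7 sites with a match had medians of -0.19, -0.02, 0.06 and 0.33. Among these, the 2 strongest, which hold the same 13 bases, followed the sites without a match, with 0.34, 0.19, -0.45 and -0.17 at 7957208. The other 5 ranged from -1.68 to 0.14 in replicate 1, from -0.74 to 0.47 in replicate 2, from -0.07 to 0.48 in replicate 3 and from 0.13 to 0.70 in replicate 4. Over the whole reproducible list, summits were not joined into sites. There the 473 summits with a consensus match had medians of -0.11, -0.12, 0.02 and 0.17. The 6633 without one had 0.01, 0.01, -0.00 and -0.02.

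**Figure D3:**
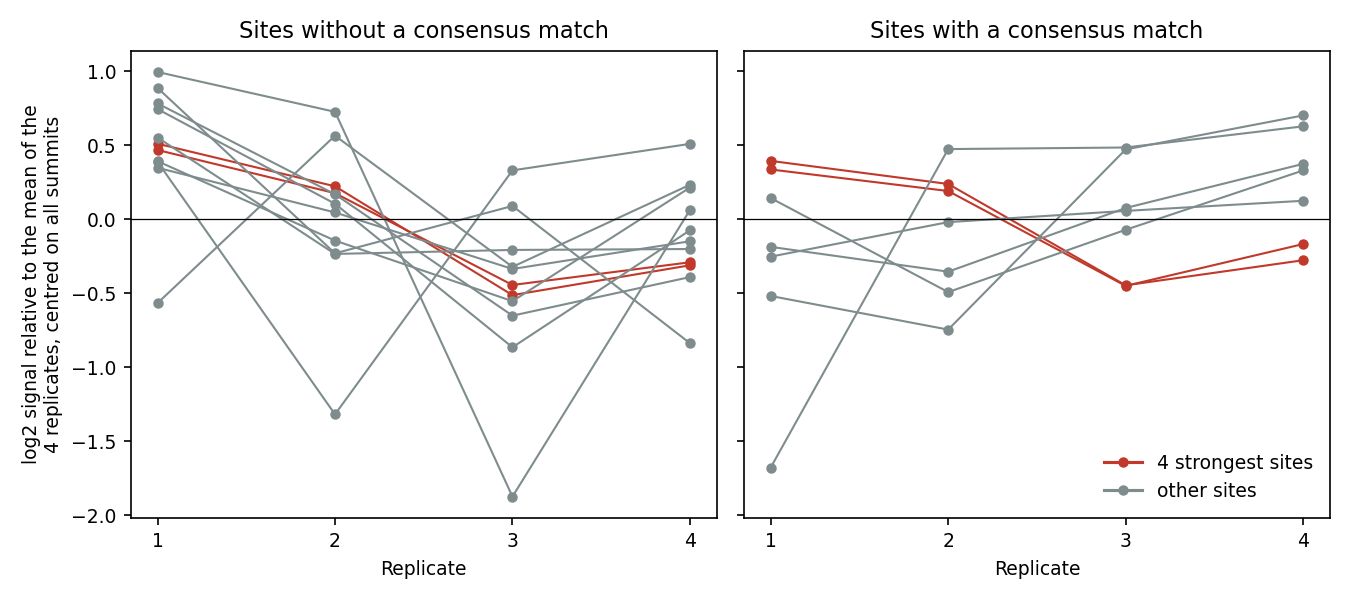
Deviation of 18 dsx sites in each replicate. The x axis gives the replicate and the y axis the log2 signal relative to the mean of the 4 replicates, centred on all reproducible summits; a line joins the values of 1 site and implies no order of the replicates. The 11 sites without a consensus match are at left and the 7 with one at right, with the 4 strongest sites in red, which all lie above 0 in replicates 1 and 2 and below 0 in replicates 3 and 4.

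Known Doublesex motifs were found at part of the sites. The core ACAATGT, sought on both strands and whole within 50 bp of a summit, was at 2 of the 30 summits, 7954683 and 7961584 (6.67%), near the 8.06% of all 9154 reproducible summits. ACAAAGT, which differs from the core at 1 base, was at 4 summits (13.3%, against 6.84% of all), namely 7968003, 7957208, 7950382 and 7927169. Either of them was at 6 summits (20%, against 14.6%). The consensus, which can hold either sequence in its middle, was at 7 (23.3%, against 6.07%). These counts are small and were not tested. At 7954683 the consensus match holds ACTAAGT, and the core lay separately, 25 bp from the summit. The median GC content within 50 bp was 48.5% for the 30 summits and 37.6% for all reproducible ones, and the part of base composition in these counts was not tested.

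Of 525 adjoining stretches of 101 bp that tile the locus, 2.10% held the core, 3.43% ACAAAGT and 2.10% the consensus. The locus held 11 core matches, or 2.07 per 10 kb against 1.72 on all of 3R, and 2 of them lay within 50 bp of a reproducible summit, while 3.35% of core matches on all arms did. One more core match, at 7969663 to 7969669, was 56 bp from the upstream summit 7969610. Core matches in the female exon and in the last male exon lay 505 and 1028 bp from the nearest reproducible summit. Of 18 ACAAAGT matches in the locus, 4 lay at a reproducible summit, against 2.21% on the arms. Of 13 consensus matches 7 did, against 3.16% on the arms. Summits were dense in the locus, at 5.65 per 10 kb against a median of 0.571 for genes of at least 20 kb. Any sequence there thus lies near a summit more often, so the arm shares are not a like background for these 3 counts.

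The 7 consensus sites differed widely in strength. Apart from the 2 strongest, they had pooled signals of 1827 (7954683), 1085 (7961584), 639 (7945158), 576 (7950382) and 535 (7927169). At 7927169, between the male exons, the signals were 68.2, 85.4, 227 and 222 in replicates 1 to 4, or 0.413%, 0.393%, 1.47% and 1.53% of the strongest site. Replicates 3 and 4 were higher there without overlap, also on the log2 scale centred on all summits, with -0.52, -0.74, 0.47 and 0.70. On that scale the 473 summits with a consensus match in the whole reproducible list had medians of -0.11, -0.12, 0.02 and 0.17. How many single summits show this split was not counted. At 7945158 the shares were 0.777%, 0.557%, 1.2% and 1.41%, again higher in replicates 3 and 4. On the log2 scale centred on all summits its deviations were 0.14, -0.49, -0.07 and 0.33. Replicate 1 was above replicate 3 on that scale, so the order at 7945158 depended on the divisor. At 7950382 they were 0.147%, 0.728%, 1.18% and 1.16%, and replicate 1 was lowest. No consensus match lay within 50 bp of the first-exon site or of any summit in the upstream chain.

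The dsx summits had a higher median signal than all reproducible summits, 662 against 463, and 21 of 30 (70%) were in the stronger 4577 of the list. Of the 30, 3 were among the strongest 100 and 7 among the strongest 1000 of all 9154 reproducible summits. Beyond the reproducible list, 27 weaker summits of the pooled list lay in the locus, with signals of 54.5 to 214, under the 255 of the weakest reproducible summit. Of these, 20 were in introns, 4 in exons and 3 in the flanks, and 19 were more than 300 bp from any reproducible summit. At any rank within 100 bp, 4 of them were in 1 replicate list, 8 in 2, 11 in 3 and 4 in all 4. One, at 7930326 with a signal of 107, lay in the first male exon. Recovery of weaker pooled summits elsewhere was not counted. Since replicates 2, 3 and 4 gave the pooled list, some recovery of its summits is built in.

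Among 1020 protein-coding genes with a span of at least 20 kb, dsx was second in the density of reproducible summits. It had 5.65 per 10 kb of span with 5 kb on each side, against a median of 0.571, and 262 of these genes had none. E2f1, a regulator of entry into the cell cycle, had 5.73 per 10 kb (29 summits). Below dsx came tara with 5.60 (25 summits), Tis11, which encodes an RNA-binding protein that promotes mRNA decay, with 5.43 (18), crp, which encodes a basic helix-loop-helix factor, with 5.27 (18), and atos with 5.09 (16). The strongest summits of these 5 genes had signals of 1451 to 18755, below the 68022 of dsx. Counted without the flanks, dsx was seventh, with 24 summits within the gene and 6 upstream of it.

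**Figure D4:**
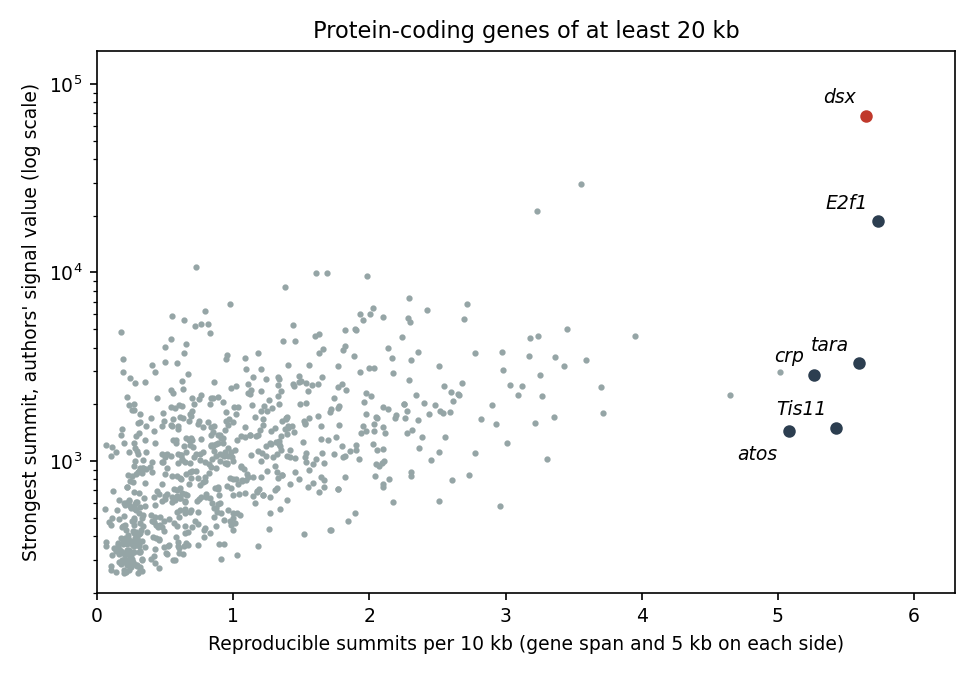
Summit density and strongest summit of protein-coding genes of at least 20 kb that hold a reproducible summit. The x axis gives reproducible summits per 10 kb of gene span with 5 kb on each side, and the y axis the authors' signal value of the strongest summit on a log scale, 1 point per gene. dsx (red) lies at 5.65 per 10 kb with the highest signal, beside E2f1 at 5.73.

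The other genes of the sex determination pathway examined had fewer summits per 10 kb than dsx, as did nearly all genes of at least 20 kb. Of 10 such genes, 5 had a reproducible summit in their span or within 5 kb, near the 52.3% of 13968 protein-coding genes that had one. The strongest summit among them, with a signal of 2418, was 1 of 2 beside her, which at 1.60 per 10 kb also had the highest density of the 10. Sxl, the switch gene of the pathway, had 4 summits, the strongest with a signal of 1466. The gene fru, like dsx a target of Transformer in splicing, had 7 over a much longer span, the strongest with a signal of 857, and 0.495 per 10 kb against 5.65 for dsx. The genes tra and fl(2)d had 1 summit each, and ix, nito, snf, tra2 and vir had none.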

How the data were processed

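Anti-GFP ChIP-seq of whole prepupae was deposited as 4 replicate peak lists, 1 pooled list and 1 reproducible list on dm6. Per the deposited notes, peaks of each replicate were called with 1 control file, replicates 2, 3 and 4 together gave the pooled list, and an optimal threshold on the IDR (irreproducible discovery rate) over these gave the reproducible list. Which aligner, peak caller and threshold value were used is not given in the sources used here. The signal of a peak is the authors' own value per peak, deposited without normalization between lists. Each list other than the reproducible one holds 30000 summits, a fixed length rather than a count of sites, and the strongest 9154 summits of the pooled list make up the reproducible one. Sequencing depth is unknown, so no counting intervals are given. With 1 group, no test was made and no p-value is given, and replicate SDs measure only the spread between these samples.

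Summits were placed at the deposited offset from the interval start, printed 1-based. Summits at most 300 bp apart were joined into a site, which is named by its strongest summit. Recovery meant a summit within 100 bp among the strongest 10000 of a replicate. Gene models were those of Ensembl release 115. Sequence was read from RefSeq, whose arm lengths contain all genes and summits. Female and male transcripts were classed by the known exon order of dsx. Motifs were sought on both strands. The text names the 10 strongest sites, all summits with the core or consensus or in an exon, all sites missing from a replicate, the 5 genes nearest to dsx in density rank, and 3 pathway genes with values. Members, lists and rules were chosen with earlier results of these data known. Alternatives covered the list, joining and matching distances, list length, each replicate left out, motif window, margin and gene length. The calculations used Python 3.11, pandas 2.3.3, numpy 2.4.6, scipy 1.17.1 and matplotlib 3.10.9, and the motif search and joining were tested on simulated data. Control samples and signal tracks were not used here. Dixon's ratio for an outlying replicate was computed for 14 measures over the 4 replicates and exceeded its critical value of 0.829 for 0 of them.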

Additional observations from a re-analysis of the deposited data

How the results depend on the processing

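Of 38 alternative values for 9 results, 32 stayed within 1.5 times the reported count, or within 1 SD for the ratio and rho, and 6 moved further. In the pooled list the locus held 57 summits in place of 30, and its introns 41 in place of 21. With the strongest 5000 summits of each replicate, 9 of the 23 sites were recovered in all 4 replicates in place of 14. Within 25 bp of a summit the core was at 1 summit in place of 2, and the consensus at 4 in place of 7. Without the flanks dsx ranked 7 in summit density in place of 2. Among the smaller changes, the stronger 4577 summits of the list left 21 in the locus and 14 in introns, matching within 50 bp gave 10 recovered sites, a match to any joined summit, added after seeing the data, gave 15, joining at most 150 bp apart gave 30 sites in place of 23, and 3 summits had the core within 100 bp. Leaving out each replicate in turn gave 15 to 16 sites recovered in all the others, a ratio of the strongest to the second site of 7.30 to 7.61 and a mean rho of 0.773 to 0.838. No paired analysis was possible because there is only 1 group.

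The lists hold no read counts, so how depth limits the weaker sites was not tested. Fixed list lengths let weak summits enter any list, which bears on recovery at low ranks. Only replicate 1 is independent of the reproducible list.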
